A study of Macaca mulatta with 56 samples.

Results

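The comparison described here is the difference between 2 brain regions in their response to estradiol: the amygdala minus the prefrontal cortex of the same animal, in old female rhesus macaques (Macaca mulatta). All 14 animals were 19.4 to 23.2 years old, were moved to a Western-style diet with 36% of calories from fat, and had the ovaries and uterus removed (OvH) about 6 weeks later. In the hormone therapy group (HT, 7 animals) implanted capsules released estradiol and gave serum levels of 82.1 pg/mL. In the control group (called OvH, 7 animals) the capsules were empty and serum estradiol was 6.6 pg/mL. Every animal of both groups thus carried the surgery and the diet, and none had intact ovaries. The submitters give an average of 32 months with the serum levels and call the study one of 30 months. Each animal gave pulverized bulk tissue of both regions, so 28 of the 56 libraries were used: 7 HT and 7 OvH animals, each with an amygdala and a prefrontal cortex library. Messenger RNA was sequenced with a stranded kit as paired reads of 150 bases.

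The members were the identifiers whose level in the amygdala matched that in the rest of the brain. In the deposited table an amygdala column and a column of another region do not always hold the same transcript in the same row, so an identifier was kept only where its mean log2(value + 1) over the hippocampal, occipital and prefrontal libraries lay within 2 of that over the amygdala libraries. This kept 13520 of 17807 identifiers (75.9%), of which 13495 had a mean normalized value of at least 10 and were tested. Just inside the limit lay SLC35G2, with a gap of 2.00 (1.9988 before rounding), and just outside lay SPINT1, with a gap of 2.00 (2.0012). Between hippocampus and prefrontal cortex 98.1% of identifiers passed the same limit. When the amygdala rows were moved by 50 rows 33.6% still passed, from which an estimated 15.2% of the kept identifiers carry a wrong name. Moved by 1 row, 42.9% still passed. An estimate from that share would be higher and was not made. For 7366 of the kept identifiers (54.5%) the row's own level in the other regions was also the nearest among the 7 rows around it. Of the genes printed with values below, 59 of the 107 chosen by rule met that stricter condition. Among the called genes printed with values, VMA21, ETFRF1, ATF7, CCDC167, HSCB, PAGE2B, DIPK2B, RPRML, C1QTNF1, RPL26, 1 of the 2 entries each of RPS24 and RPS27A, NDUFB3, MRPL47, LSM2, LSM4, PHF5A, SNRPD2, SNRPE, SF3B4, PRDX1, PRDX4, RARS1, CCAR2, HMGCS1, MTERF3, SYNJ1, SYT5, SCN3A, SLC2A3, TAC1, FLT1, TBR1 and some members of the families in the closing observations did not meet it, and their names are less certain.

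Estradiol acts through the nuclear receptors ESR1 and ESR2, which bind DNA and change transcription, and through the membrane receptor GPER1. The amygdala, which processes fear and social signals, is one of the brain regions rich in estrogen receptors in primates. The prefrontal cortex serves working memory, and estradiol is known to affect its dendritic spines. The interaction asked here is whether the change with estradiol is the same in both.

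It was not the same for 982 of 13495 identifiers (7.28%), tested with limma on the per animal difference of log2(value + 1) with Benjamini-Hochberg adjustment at 0.05. The regional difference was higher in HT for 716 (5.31%) and lower for 266 (1.97%). At an unadjusted limma p under 0.05 there were 3261 (24.2%) in either direction, the background for the unadjusted list counts below. Among the higher calls were 52 of 61 tested genes of cytosolic ribosomal proteins, 9 of 24 of respiratory complex I and 15 of 63 of mitochondrial ribosomal proteins. Among the lower calls were 10 of 39 genes of synaptic vesicle release and 6 of 30 of heat shock proteins and their partners. Values are normalized read signal, with differences and effects on the log2(value + 1) scale.

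The change lay mostly on the amygdala side. Among the 716 higher calls the median difference was 0.93, the median HT effect within amygdala was 0.88 and that within prefrontal cortex was -0.03. The amygdala effect was the larger of the pair in 702 of the 716, and in 71.6% of all identifiers tested. In the control animals these genes already stood somewhat higher in amygdala than in prefrontal cortex, with a median regional gap of 0.43, and the gap was 1.44 in HT. Among the 266 lower calls the median difference was -0.57, from a median of -0.47 in amygdala and 0.11 in prefrontal cortex. In 221 of the 266 the effects in the 2 regions had opposite signs, against 421 of the 716 higher calls and 5668 of all 13495 identifiers. The calls were chosen by the difference of the 2 effects, so these counts of signs are a description. Tested alone with limma on the same identifiers, the amygdala had 926 calls (6.86%), of which 820 were higher (6.08%) and 106 lower (0.785%), and the prefrontal cortex had 0, with 490 at an unadjusted p under 0.05 (3.63%). An effect called in amygdala and not in prefrontal cortex is not by itself a difference; the 982 calls are the test of that difference. Leaving out 1 animal gave 449 to 1999 calls in amygdala, and the count moved by more than 1.5 times without HT animals 36 (499), 37 (595), 38 (597) and 42 (613) and without OvH animals 32 (1999), 33 (449), 35 (530) and 43 (501). In prefrontal cortex 1 identifier was called without animal 42. In 70 identifiers (0.519%) every HT animal lay above every OvH animal, and in 39 (0.289%) every HT animal lay below.

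**Figure D1:**
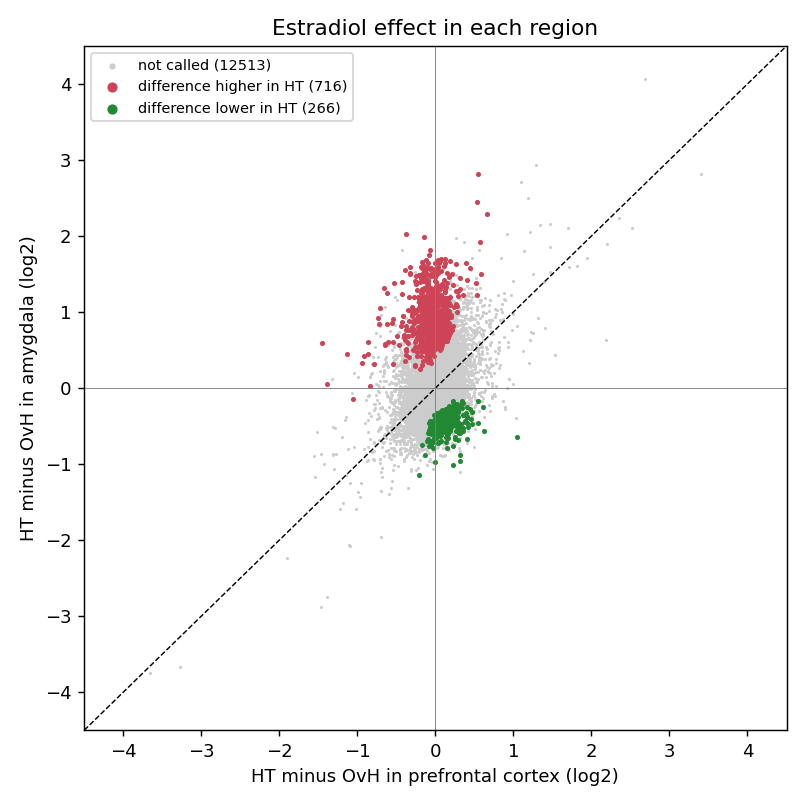
Each point is 1 of the 13495 tested identifiers, with the HT minus OvH effect within prefrontal cortex on the x axis and within amygdala on the y axis (both log2); the dashed line marks equal effects. The 716 higher calls (red) form a vertical cloud above the line, near 0 on the x axis, and the 266 lower calls (green) lie below it.

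The number of calls rested on single animals and on the scaling. With the libraries scaled to equal totals in place of the deposited upper-quartile scaling, there were 2294 calls (501 higher and 1793 lower of 13495). Of the calls 21.8% were higher, against 72.9% with the deposited scaling. The median difference over all identifiers moved from 0.01 to -0.20. List counts given with equal totals below stand against this background. The normalized total of a library went with treatment: its amygdala minus prefrontal difference was 12.46 ± 5.23 M in HT and 2.88 ± 4.00 M in OvH (M for the prefix mega; SD, n = 7 each; exact two-sided permutation test, p = 0.0052), with overlapping ranges of 3.05 to 17.9 and -3.57 to 9.78. The same difference in reads was -6.21 ± 25.6 M in HT and 4.45 ± 21.6 M in OvH (SD, n = 7 each; exact two-sided permutation test, p = 0.428). The 28 libraries had 39.1 to 93.3 M reads. Leaving out 1 animal at a time gave 402 to 1534 calls. The count moved by more than 1.5 times without HT animals 36 (402), 37 (477), 38 (601), 41 (542) and 42 (511) and without OvH animals 30 (1534), 33 (508), 34 (533) and 35 (478).

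The amygdala libraries of OvH animal 35 and HT animal 42 stood apart in markers of neighbouring tissue. Choroid plexus markers (5 tested of 11) had a mean log2 level of 8.23 in the amygdala of animal 35 and 7.99 in that of animal 42, against 4.61 to 6.37 in the other 12 amygdala libraries. Meningeal fibroblast markers (10 tested of 14) reached 12.1 in the amygdala of animal 42, against 6.40 to 9.69 in the others. Without these 2 animals, an alternative chosen after the data were seen, 129 identifiers were called (114 higher, 15 lower), all of them among the 982. No tested marker of a cell type was at 0 throughout a group. The part of neighbouring tissue in the results was not tested beyond leaving out these animals.

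**Figure D2:**
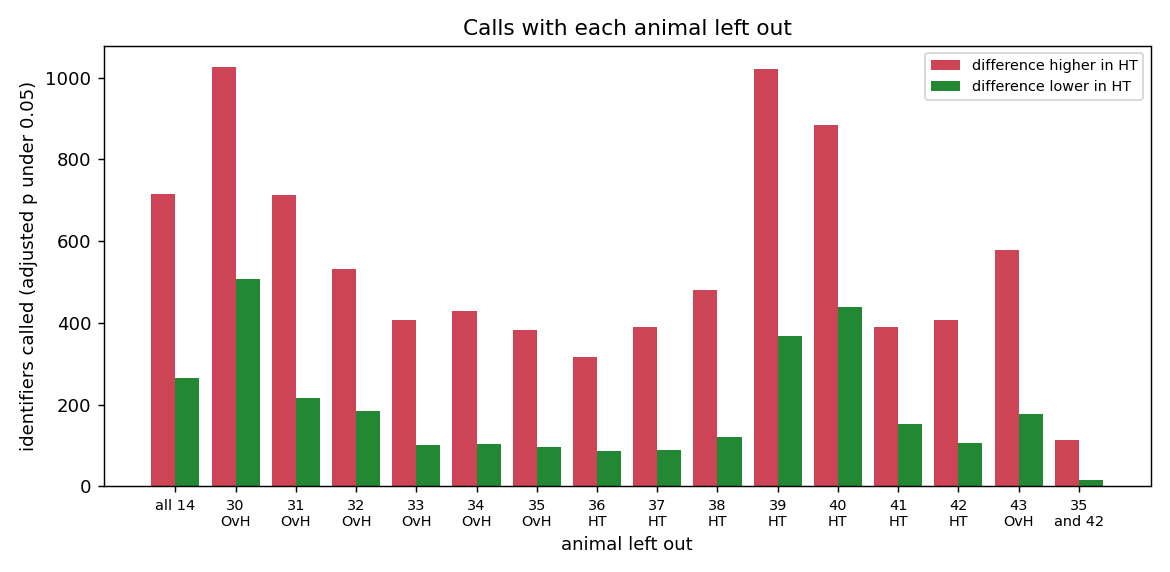
Bars give the number of identifiers called higher (red) and lower (green) at an adjusted p under 0.05, with all 14 animals and with the animal named on the x axis left out. Counts run from 402 in total without animal 36 to 1534 without animal 30, and fall to 129 without animals 35 and 42 together.

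Ribosomal proteins form the small and large subunits of the cytosolic ribosome, the machine that makes proteins from messenger RNA. Of 79 symbols on the list, 76 identifiers were in the table, 61 had matching levels and all 61 were tested. The regional difference rose with HT in 52 of the 61 and fell in none, against 5.31% and 1.97% of all identifiers tested. The median difference over the 61 was 1.33, against 0.01 over all identifiers. The median effect was 1.23 in amygdala and -0.11 in prefrontal cortex. By animal, the mean over the list was -0.47 to 1.01 in OvH (median 0.40) and 0.74 to 2.40 in HT (median 1.87), and 6 of 7 HT animals lay above every OvH animal. The OvH animal with the lowest mean was animal 35, and the lowest HT animal was animal 39.

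Both ribosomal subunits took part. The small subunit had 27 of 29 identifiers called, with a median difference of 1.54 and a range of 0.77 to 1.92. The large subunit had 25 of 32 called, with a median of 1.13 and a range of 0.44 to 1.83. The members nearest to no change were RPL3 (0.44, adjusted p = 0.135), RPL15 (0.57, adjusted p = 0.0536) and RPL28 (0.57, adjusted p = 0.194), all of the large subunit, by limma. This count was stable against single animals, at 48 to 58 of 61 when any 1 animal was left out, and was 51 with equal totals. Without animals 35 and 42 it was 26, with the median at 1.15. With no replicate block, that is with the regions treated as unpaired, 42 were called. A level match within 1 left 22 of the identifiers, of which 15 were called.

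RPS29, a protein of the small subunit, had amygdala values of 14597 to 29627 in OvH (median 20633) and 25806 to 148680 in HT (median 71350). Its prefrontal values were 9218 to 19595 in OvH (median 14701) and 10228 to 21639 in HT (median 11372). The HT amygdala libraries thus reached far above the OvH ones while the prefrontal groups overlapped throughout. The per animal regional difference of RPS29 rose from a mean of 0.59 to 2.40, a difference of 1.81 ± 0.33 (SE, n = 7 each; limma adjusted p = 0.0110), and 5 of 7 HT animals exceeded all OvH animals. RPS27, another small subunit protein, differed by 1.76 ± 0.36 (limma adjusted p = 0.0117), a call that was lost without animals 35 and 42. RPL26, of the large subunit, differed by 1.83 ± 0.35 (limma adjusted p = 0.0110). The symbols RPS24 and RPS27A each stand on 2 identifiers, between which reads may have been split. The 2 entries differed by 1.92 ± 0.32 and 1.57 ± 0.31 for RPS24, and by 1.77 ± 0.28 and 1.88 ± 0.35 for RPS27A.

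Other parts of the translation machinery moved less uniformly. Translation factors had 5 of 30 higher and 1 lower, with a median of 0.09 that turned to -0.12 with equal totals, where 3 were higher and 7 lower. Without animals 35 and 42 none was called. EEF1A1, the elongation factor that delivers tRNA to the ribosome, rose by 1.01 ± 0.24. EEF1B2 and EEF1G, subunits of its exchange factor, rose by 1.33 ± 0.26 and 0.61 ± 0.18. NACA and BTF3, which form the complex that binds new chains at the ribosome exit, rose by 0.94 ± 0.20 and 0.62 ± 0.17. EIF4H, which helps the helicase of initiation, fell by 0.54 ± 0.13.

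The respiratory chain passes electrons from nutrients to oxygen in mitochondria and drives ATP synthesis. Complex I, its entry point, had 9 of 24 tested members higher and 0 lower, with a median difference of 0.66 (0.60 in amygdala and 0.02 in prefrontal cortex). Complexes II to V, cytochrome c included, had 10 of 30 higher and 0 lower, with a median of 0.53. At an unadjusted limma p under 0.05 these were 16 higher and 1 lower for complex I and 20 higher and 1 lower for complexes II to V. With equal totals complex I had 9 higher and 3 lower, and complexes II to V had 8 higher and 3 lower. In complex I the higher calls numbered 3 without any one of animals 33, 34, 35, 36, 41 and 42, 4 without 37, 5 without 38 and 14 without 39. In complexes II to V they numbered 6 without animal 36 and 17 without animal 39. Without animals 35 and 42 these were 2 and 0.

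NDUFB9, an accessory subunit of complex I, had amygdala values of 15799 to 40574 in OvH (median 30952) and 33313 to 162670 in HT (median 105460). In prefrontal cortex its values were 24663 to 44127 in OvH (median 30469) and 25477 to 50151 in HT (median 30451). The prefrontal medians were nearly equal, and in amygdala the HT values ran well above the OvH ones with a small overlap. The regional difference was -1.08 to 0.45 in OvH and 0.39 to 2.42 in HT, and it rose by 1.65 ± 0.30 (SE, n = 7 each; limma adjusted p = 0.0110). NDUFB3, also an accessory subunit, rose by 1.66 ± 0.29, and COX7A2, a small subunit of cytochrome oxidase, by 1.65 ± 0.33. UQCRH of complex III rose by 1.04 ± 0.23 and ATP5MG of the ATP synthase by 1.21 ± 0.27. The complex II anchor SDHC had one of the smaller rises, 0.52 ± 0.15.

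The mitochondrial ribosome makes the respiratory subunits encoded in mitochondrial DNA. Of its 63 tested identifiers 15 rose and 0 fell, with a median difference of 0.33, and 51 of 63 were positive. MRPL47 of its large subunit rose by 1.09 ± 0.23 and MRPS33 of its small subunit by 1.24 ± 0.28 (the latter symbol stands on 2 identifiers). Leaving out animal 36 gave 7, leaving out 35, 37 or 41 gave 9, and leaving out 39 gave 26. With equal totals 11 were higher and 6 lower, with no replicate block 4 were higher, and without animals 35 and 42 none was called. HSCB, a co-chaperone of iron-sulfur cluster assembly, had amygdala means of 1146 ± 301 in OvH and 2856 ± 898 in HT (SD, n = 7 each). Its prefrontal means were 895 ± 214 and 912 ± 172. The difference for HSCB was 1.25 ± 0.22 (limma adjusted p = 0.0110), and no OvH animal reached the 7 HT animals. ETFRF1, a regulator of the electron transfer flavoprotein, rose by 1.26 ± 0.22, also with all 7 above.

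Antioxidant enzymes, which remove peroxides and repair oxidized residues, had 6 of 23 higher and 0 lower (median 0.31). GSTM3, a glutathione transferase, rose by 1.07 ± 0.21, and its amygdala mean was 31951 ± 9121 in HT against 16826 ± 4992 in OvH (SD, n = 7 each). MSRB2, a mitochondrial methionine sulfoxide reductase, rose by 0.70 ± 0.15, with all 7 HT animals above every OvH animal. The others were PRDX4, GSTO1, TXN and PRDX1, with differences of 0.79 to 0.91. With equal totals 4 of the list were higher and 2 lower, with a median of 0.11, and with no replicate block 3 were higher. Leaving out 1 animal gave 4 to 8 higher and 0 to 1 lower. Without animals 35 and 42 the called members were 2.

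Proteins of pre-mRNA splicing had calls in both directions. Sm and LSm proteins, which form rings around small nuclear RNAs, were among the higher calls. They were SNRPG (1.29 ± 0.33), SNRPE (0.75 ± 0.17), LSM2 (1.11 ± 0.23), LSM4 (0.65 ± 0.19) and SNRPD2 on 2 identifiers (1.22 and 1.197). PHF5A, a small subunit of the SF3b complex, rose by 1.07 ± 0.23. PRPF19, SF3B4 and EFTUD2 fell by 0.57 ± 0.15, 0.55 ± 0.16 and 0.33 ± 0.10. Over the list, 7 of 32 were higher and 3 lower, with a median of 0.27 and a range of -0.17 to 0.31 over the alternatives; The lower calls were 0 without any one of animals 32, 33, 34, 35, 36, 37, 38 and 42 and 1 without 41. With equal totals 6 were higher and 8 lower, 14 were higher without animal 39, and 1 was higher and 0 lower without animals 35 and 42. The proteasome, which degrades tagged proteins, had 3 of 26 higher and 1 lower (2 and 5 with equal totals, none without animals 35 and 42). PSMA5 of its core rose by 1.09 ± 0.24, while PSMD3 of its regulatory lid fell by 0.62 ± 0.13, with all 7 HT animals below every OvH animal.

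**Figure D3:**
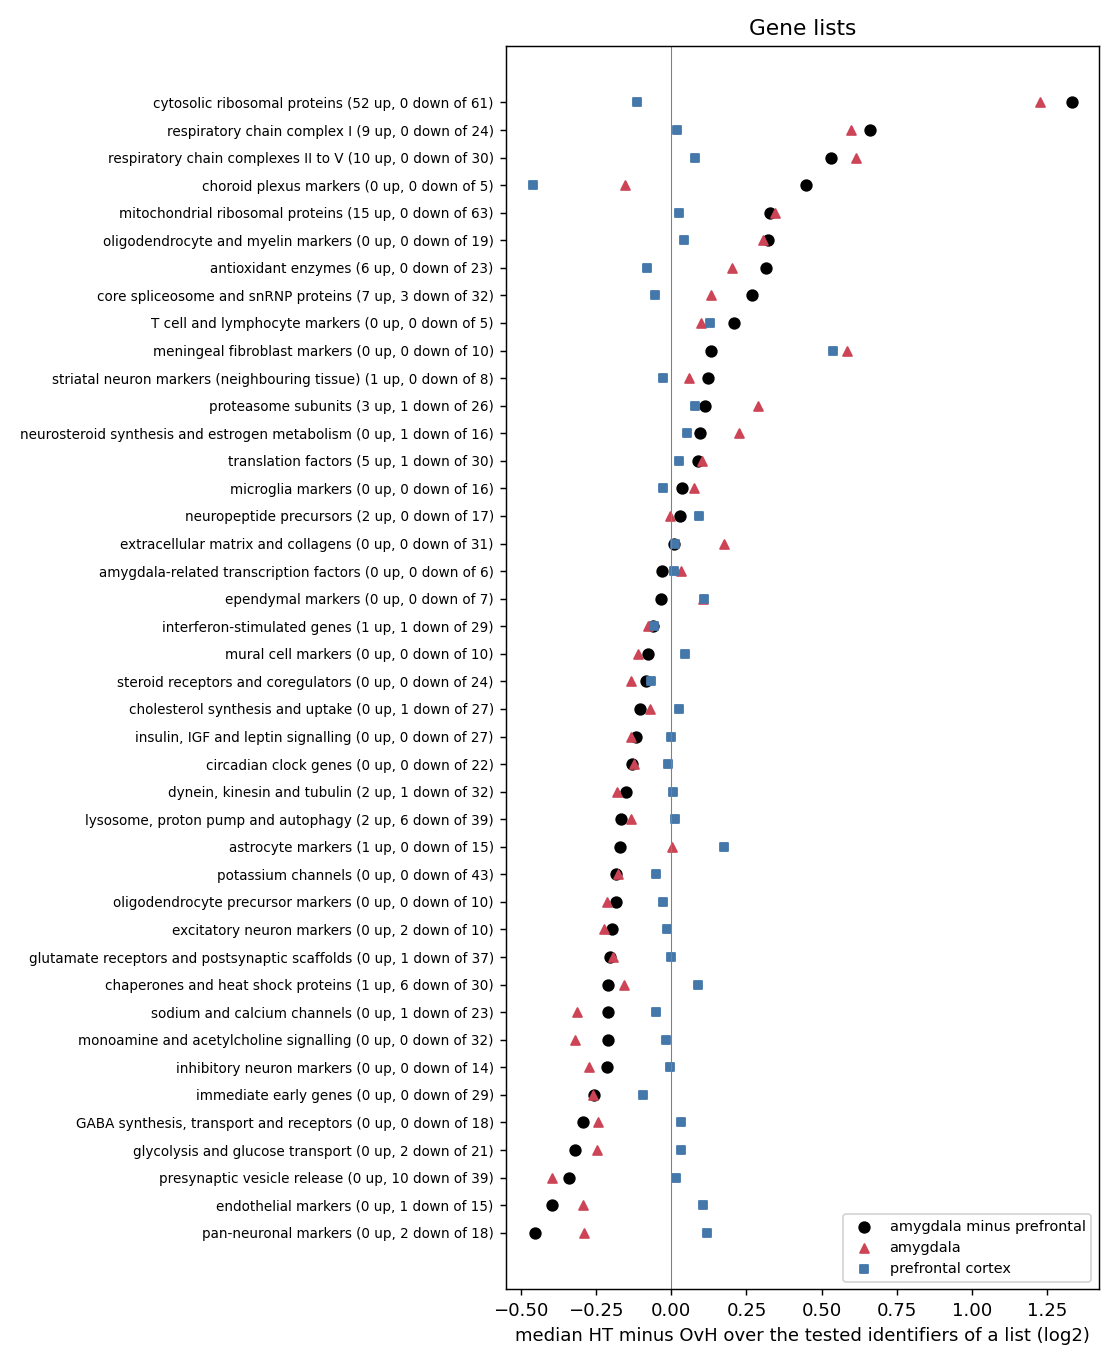
For each gene list with at least 5 tested identifiers, the x axis gives the median HT minus OvH value over its tested identifiers (log2): black for the regional difference, red for the amygdala effect and blue for the prefrontal effect; the labels count identifiers called up and down. Among the black points cytosolic ribosomal proteins lie farthest right at 1.33 and pan-neuronal markers farthest left at -0.45.

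**Figure D4:**
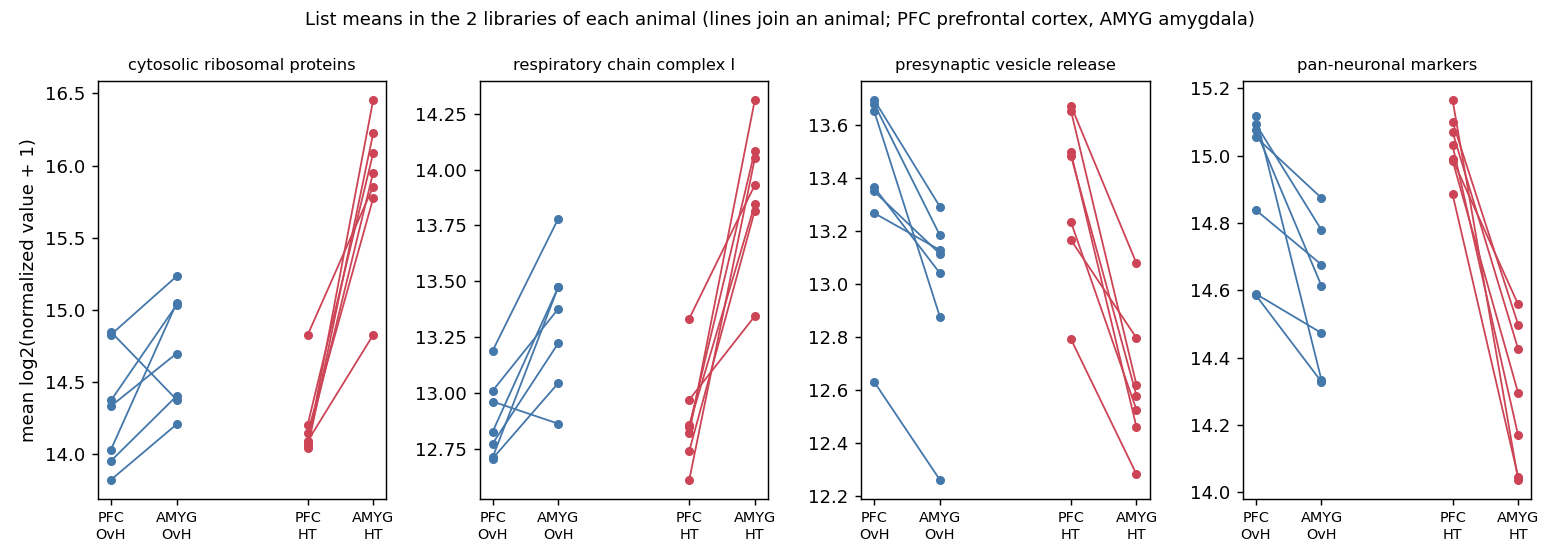
Each line joins the prefrontal cortex (PFC) and amygdala (AMYG) library of 1 animal; the y axis is the mean log2(normalized value + 1) over the tested identifiers of a list, OvH in blue and HT in red. In the ribosomal panel the lines rise by 0.74 to 2.40 in HT and by -0.47 to 1.01 in OvH, and in the presynaptic panel they fall by 0.37 to 1.04 in HT and by 0.14 to 0.77 in OvH.

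The proton pump that acidifies lysosomes and synaptic vesicles gave calls in both directions. ATP6V1G1, the broadly expressed form of its G subunit and the gene with the smallest p among symbols on a single identifier, had amygdala values of 8083 to 15329 in OvH (median 11132) and 14834 to 31762 in HT (median 26071). Its prefrontal values were 6796 to 12435 in OvH and 7249 to 11737 in HT. The amygdala groups overlapped in a narrow band only, and the prefrontal groups overlapped almost wholly. The regional difference for ATP6V1G1 was -0.48 to 0.50 in OvH and 0.75 to 2.01 in HT, and it rose by 1.17 ± 0.19 (SE, n = 7 each; limma adjusted p = 0.0110). All 7 HT animals lay above every OvH animal. VMA21, an assembly factor of the same pump, rose by 1.03 ± 0.17, again with all 7 above. ATP6V1G2, the brain form of the G subunit, went the other way and fell by 0.51 ± 0.13.

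Other pump subunits fell: ATP6V1B2 by 0.70 ± 0.14, ATP6V1H by 0.53 ± 0.13 and ATP6V0D1 by 0.50 ± 0.12. Of the 39 tested genes of lysosome, proton pump and autophagy, 2 were higher and 6 lower, and 2 and 14 with equal totals. The second higher call was GABARAPL2, an autophagosome protein (0.86 ± 0.17), and the remaining lower ones were PSAP, the saposin precursor (-0.63 ± 0.14), and the peptidase TPP1 (-0.64 ± 0.19). Without animals 35 and 42 only 1 of the list was called higher and 0 lower. AP1G1, a subunit of the adaptor that sorts cargo at the Golgi, fell by 0.77 ± 0.15, with 6 of 7 HT animals below every OvH animal.

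Of 39 tested genes of synaptic vesicle release, 10 fell in amygdala relative to prefrontal cortex under HT and 0 rose, with a median of -0.34 (-0.40 in amygdala, 0.02 in prefrontal cortex), and 34 of 39 were negative. By animal, the list mean was -0.77 to -0.14 in OvH and -1.04 to -0.37 in HT, so the groups overlapped. The count was 2 without animal 37, 3 without 36 or 42, 5 without 33, 35 or 43, 6 without 32, 34 or 38 and up to 13 without the others. It was 17 with equal totals, and none without animals 35 and 42 or with no replicate block. SYP, synaptophysin of the vesicle membrane, had amygdala values of 35242 to 77163 in OvH (median 49517) and 19611 to 43877 in HT (median 29225). In prefrontal cortex SYP had 36713 to 85794 in OvH (median 75227) and 51938 to 83031 in HT (median 70318). SYP thus changed on the amygdala side, and its regional difference fell by 0.85 ± 0.20 (SE, n = 7 each; limma adjusted p = 0.0174), with 4 of 7 HT animals below every OvH animal.

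Other called members act at several steps of the vesicle cycle. NSF, which takes apart used SNARE complexes, fell by 0.71 ± 0.17. RAB3A on the vesicle surface fell by 0.61 ± 0.16. SYNJ1 and DNM1, which act in vesicle retrieval, fell by 0.70 ± 0.17 and 0.67 ± 0.18. SYT5, SYT4, SV2B and the glutamate transporter SLC17A7 had differences of -0.76, -0.54, -0.70 and -0.41.

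For receptors and channels the count depended on the scaling. With equal totals 1793 of all 13495 identifiers were lower. In that setting 9 of 37 glutamate, 7 of 18 GABA and 4 of 43 potassium channel genes were lower. So were 5 of 23 sodium and calcium channel and 6 of 32 monoamine and acetylcholine genes, and none of these lists had a higher call. The potassium channel share lay below that over all identifiers. Without animals 35 and 42 none of these genes was called. With the deposited scaling there were fewer calls. Glutamate receptors and scaffolds had 1 of 37 called, the AMPA receptor subunit GRIA3 (-0.48 ± 0.13), a call lost in 16 of 30 alternatives. For genes of GABA synthesis, transport and receptors limma called 0 of 18, edgeR 0 and DESeq2 0. At an unadjusted limma p under 0.05, 7 were lower, while 24.2% of all identifiers passed that limit in either direction. All 18 values were negative, with a median of -0.29. Potassium channels had 0 of 43 called by limma, edgeR or DESeq2, with 2 lower at an unadjusted p under 0.05. Sodium and calcium channels had 1 of 23, SCN3A at -0.69 ± 0.20, a call lost in 20 of the 29 alternatives it was part of. Monoamine and acetylcholine genes had 0 of 32 called by limma and edgeR and 2 lower by DESeq2, with 7 lower at an unadjusted p under 0.05. CHRM1, a muscarinic receptor, came nearest (-0.69 ± 0.21, limma adjusted p = 0.0533).

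Of the neuropeptide precursors, CCK and TAC1 were called higher. CCK, a peptide of interneurons and of excitatory cells, had amygdala values of 4380 to 9966 in OvH (median 7336) and 12056 to 16200 in HT (median 12894). Its prefrontal values were 8705 to 21306 in OvH and 7524 to 16491 in HT. Every HT amygdala library lay above every OvH one, while the prefrontal groups overlapped. The regional difference of CCK rose by 1.17 ± 0.23 (SE, n = 7 each; limma adjusted p = 0.0110). In 6 of 7 HT animals it exceeded the highest OvH value, and the call held in all 30 alternatives. TAC1, the substance P precursor, rose by 0.85 ± 0.23 (limma adjusted p = 0.0364), a call lost in 13 of 29 alternatives, equal totals among them. Of 17 precursors tested, 2 were higher and 0 lower, with 9 values positive, 8 negative and a median of 0.03. By edgeR and by DESeq2, 2 were higher and 1 lower. With equal totals 1 was higher and 2 lower, and the median was -0.18. Without animals 35 and 42, 1 was higher and 0 lower.

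NPY1R, a receptor for neuropeptide Y, fell by 1.19 ± 0.27 (limma adjusted p = 0.0169) and held in all 30 alternatives. Its amygdala values were 402 to 741 in OvH (median 557) and 248 to 635 in HT (median 349), and its prefrontal values were 187 to 404 in OvH (median 280) and 304 to 528 in HT (median 414). Both regions contributed, with an effect of -0.56 in amygdala and 0.63 in prefrontal cortex. In OvH every animal had more NPY1R signal in amygdala than in prefrontal cortex, with regional differences of 0.51 to 1.55. In HT these ranged from -0.69 to 0.79.

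NPY1R belonged to a small set in which the prefrontal effect was the larger. Of the 266 lower calls, 25 were of this kind, and of the 716 higher calls 14. An unadjusted prefrontal p under 0.05 was found in 42 of the lower calls (15.8%), 16 of the higher calls (2.23%) and 3.63% of all identifiers; the calls were chosen by a difference that contains the prefrontal effect, so these shares are a description. HMGCS1, an enzyme of cholesterol synthesis, had prefrontal means of 5741 ± 1492 in OvH and 7873 ± 1632 in HT (SD, n = 7 each), and amygdala means of 12657 ± 3642 and 10059 ± 2137. The regional difference of HMGCS1 fell by 0.78 ± 0.14 (limma adjusted p = 0.0110), and all 7 HT animals lay below every OvH animal. SQLE, a later enzyme of the pathway, had a difference of -0.47 ± 0.15 (limma adjusted p = 0.0583), and the pathway as a whole had 1 of 27 called (8 lower with equal totals). MTERF3, a mitochondrial transcription factor, and CLTC, the clathrin heavy chain, had prefrontal effects of 0.55 and 0.36 and amygdala effects of -0.45 and -0.36.

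Heat shock proteins and their partners, which fold other proteins, had 6 of 30 lower and 1 higher (median -0.21), and 25 of 30 were negative. HSPA4 fell by 0.73 ± 0.15, HSPH1 by 0.79 ± 0.23, HSPA12A by 0.63 ± 0.17, STIP1 by 0.55 ± 0.13, DNAJA1 by 0.50 ± 0.14 and HSPA9 by 0.47 ± 0.13. In these 6 the prefrontal effect was positive, at 0.14 to 0.41, and the amygdala effect negative. The exception was HSPE1, the mitochondrial co-chaperonin, at 0.61 ± 0.18. The lower calls numbered 2 without any one of animals 31, 32, 35, 36, 38 and 42, 3 without 33, 34, 37 or 43, and 16 with equal totals; without animals 35 and 42 none of the list was called.

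Among the smallest p of the lower calls were enzymes that act on RNA. RARS1, which charges arginine tRNA, had amygdala means of 4343 ± 428 in OvH and 2958 ± 701 in HT and prefrontal means of 1794 ± 244 and 2216 ± 376 (SD, n = 7 each). The difference for RARS1 was -0.89 ± 0.15 (limma adjusted p = 0.0110). DHX9, an RNA and DNA helicase, had amygdala values of 6473 to 9775 in OvH (median 8126) and 3964 to 7826 in HT (median 4862), and prefrontal values of 5936 to 7416 and 6738 to 8344. The regional difference of DHX9 was positive in all 7 OvH animals and negative in all 7 HT animals, and it fell by 0.76 ± 0.14 (limma adjusted p = 0.0110). DDX10, a helicase of ribosome assembly, fell by 0.88 ± 0.15, and CCAR2, a regulator of the deacetylase SIRT1, by 0.92 ± 0.16. In RARS1, DDX10, CCAR2 and DHX9 all 7 HT animals lay below every OvH animal, and all 4 calls held in every alternative they were part of.

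Glycolytic genes and glucose transporters had 2 of 21 lower and 0 higher, with a median of -0.32, 19 of 21 negative and 11 lower at an unadjusted p under 0.05. ENO1, an enolase, fell by 0.52 ± 0.14, with all 7 HT animals below every OvH animal, and SLC2A3, the neuronal glucose transporter, by 0.62 ± 0.15. With equal totals 12 of 21 were lower, and with no replicate block or without animals 35 and 42 none was. The call of ENO1 was lost in 10 of 30 alternatives. By animal, the list mean was 0.00 to 0.43 in OvH and -0.27 to 0.13 in HT.

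**Figure D5:**
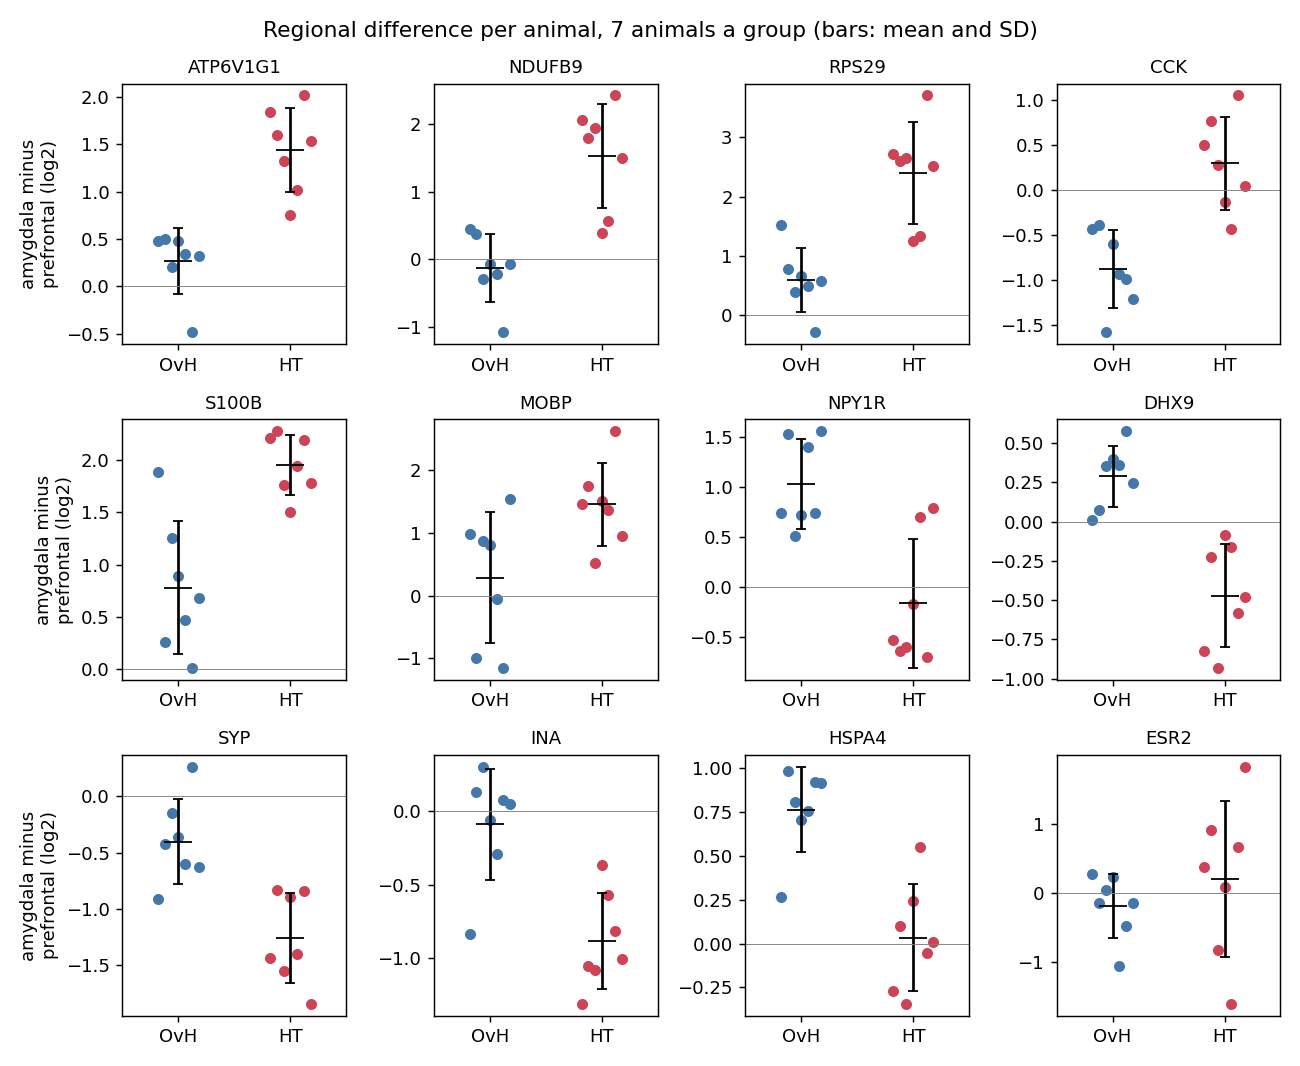
The y axis gives amygdala minus prefrontal cortex log2(value + 1) for each animal, 7 OvH (blue) and 7 HT (red), with the group mean and SD as bars. The groups do not overlap for ATP6V1G1 and DHX9, overlap in 1 or more animals for the other called genes, and overlap widely for MOBP and ESR2, which were not called.

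No receptor of a steroid hormone was called. ESR2 had amygdala means of 30.4 ± 9.35 in OvH and 46.7 ± 44.6 in HT and prefrontal means of 35.4 ± 14.2 and 28.04 ± 14.3 (SD, n = 7 each), with a difference of 0.39 ± 0.44 (limma adjusted p = 0.644). ESR1, GPER1, PGR, the aromatase gene CYP19A1 and MBP had no matching levels and were not tested. Over steroid receptors and coregulators limma, edgeR and DESeq2 called 0 of 24, with 1 higher and 1 lower at an unadjusted p under 0.05 and 3 lower with equal totals. Over all identifiers 24.2% had an unadjusted limma p under 0.05, and 1793 of 13495 were lower with equal totals. NRIP2 and KIAA1755 had effects of the same sign in both regions. NRIP2, a nuclear receptor interacting protein, had effects of -0.73 in amygdala and -0.51 in prefrontal cortex (difference -0.23 ± 0.15, limma adjusted p = 0.387). KIAA1755 had effects of 1.04 and 0.76 (difference 0.27 ± 0.22, limma adjusted p = 0.472).

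Markers of cell types were measured beside these results. For their unadjusted counts, the share over all identifiers was 24.2% in either direction. Since tissue was taken in bulk, fewer cells of a type and less RNA per cell cannot be told apart. Pan-neuronal markers had 2 of 18 lower, INA, a neurofilament partner (-0.80 ± 0.18), and DNM1, with a median of -0.45 and 17 of 18 negative. With equal totals 10 of 18 were lower, and with no replicate block or without animals 35 and 42 none was; DNM1 was lost in 14 of 30 alternatives. Their summed normalized signal in amygdala was 634620 to 978130 in OvH (median 862860) and 566610 to 776650 in HT (median 730470). In prefrontal cortex it was 644010 to 989030 and 801420 to 990020. Excitatory neuron markers had 2 of 10 lower, SLC17A7 and the transcription factor TBR1 (-0.59 ± 0.17). These calls were lost in 18 of 30 and 17 of 28 alternatives, without animals 35 and 42 and without most single animals among them. Inhibitory neuron markers had 0 of 14 by limma, with 2 higher and 1 lower at an unadjusted p under 0.05; edgeR called 1 lower, and DESeq2 1 higher and 1 lower. PVALB and CALB2, markers of different interneuron classes, had differences of 1.03 ± 0.33 (limma adjusted p = 0.0621) and -0.89 ± 0.27 (limma adjusted p = 0.0536).

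Myelin markers, made by oligodendrocytes, had 0 of 19 called by limma or edgeR and 2 higher by DESeq2. At an unadjusted limma p under 0.05, 4 were higher and 1 lower, near the share of 24.2% over all identifiers. MOBP, a myelin protein on 2 identifiers, had a difference of 1.17 ± 0.39 (limma adjusted p = 0.0748), and GJB1, a myelin gap junction protein, one of 0.90 ± 0.29 (limma adjusted p = 0.0633). The list mean by animal was -1.36 to 0.87 in OvH and -0.27 to 0.73 in HT. With the myelin difference as a covariate 524 identifiers were called, and 49 of 61 ribosomal proteins, 3 of 24 complex I genes and 3 of 39 presynaptic genes were among them.

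Of the astrocyte markers 1 of 15 was called, S100B, a calcium-binding protein, at 1.17 ± 0.24 (limma adjusted p = 0.0117). Its amygdala mean was 103200 ± 25118 in HT and 52895 ± 24566 in OvH (SD, n = 7 each), and the median of its list was -0.17. Microglia markers had 0 of 16 called by limma, edgeR or DESeq2, with 1 higher at an unadjusted p under 0.05. Endothelial markers had 1 of 15 lower, the receptor FLT1 (-0.92 ± 0.25; lost in 12 of 29 alternatives), with a median of -0.40 and 14 of 15 negative. Meningeal and choroid plexus markers were not called in limma (0 of 10 and 0 of 5; 0 and 1 higher at an unadjusted p under 0.05). How far cell composition enters the called differences was not tested.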

How the data were processed

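Gene-level normalized read signal was deposited by the authors as 1 table of 17807 Ensembl identifiers. Per the submitters' processing notes FastQC 0.1.1.2, Trimmomatic, STAR 2.7.3a, edgeR 3.28.0 and the build Mmul_10 were used; the counting program, annotation and strand setting are not given in the sources used here. The deposited values have an upper quartile of 2818.9375 in all 56 libraries. Undoing that scaling gave whole reads (100% of values within 0.01 reads), which served the count tests.

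The members and gene lists were chosen with earlier results of these data known. Per animal, log2(value + 1) in amygdala minus prefrontal cortex was compared between 7 HT and 7 OvH animals with limma 3.58.1 (trend, Benjamini-Hochberg), for identifiers with a mean of at least 10. The animal number pairs the libraries: the same-animal correlation of deviations from the group means was 0.25 to 0.79, and all 14 amygdala libraries were nearest to their own animal. Alternatives used edgeR 4.0.16 and DESeq2 1.42.0 with the animal as a block, other scalings, filters, match limits and left-out animals. On simulated data of this size (13495 identifiers), 63% of 100 genes changed by log2 1 and 7% of 100 changed by 0.5 were recovered, and 5 of 75 calls were wrong. Named genes were the 6 with the smallest p and the 6 with the largest difference each way among called single-identifier symbols, the 2 with the smallest p of each list of at least 5, and ESR1, ESR2, GPER1, PGR, CYP19A1, NRIP2, KIAA1755 and MBP where measured; other list members are given where called. RPL3, RPL15, RPL28, CLTC and the genes of the other observations were picked after their values were seen. Some results are not reported here. No gene's position in a build is given.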

Additional observations from a re-analysis of the deposited data

Results flagged for a closer look

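For the genes below the HT effect differed between amygdala and prefrontal cortex by the test of the difference itself (log2 difference, limma, adjusted p under 0.05; 61 of the 107 named identifiers, against 7.28% of all, which the rule for naming largely fixes).
The difference was higher in HT for ATP6V1G1 (1.17), VMA21 (1.03), ETFRF1 (1.26), ATF7 (1.06), CCDC167 (1.37), HSCB (1.25), PAGE2B (2.26), SNORA67 (1.95), SNORD99 (1.87), RPL26 (1.83), RPS29 (1.81) and RPS27 (1.76). Also higher were RPS27A (1.77), RPS24 (1.92), MRPL47 (1.09), MRPS33 (1.24), NDUFB3 (1.66), NDUFB9 (1.65), COX7A2 (1.65), UQCRH (1.04), EEF1B2 (1.33), NACA (0.94), PSMA5 (1.09) and LSM2 (1.11). The remaining higher ones were PHF5A (1.07), B2M (0.77), GABARAPL2 (0.86), GSTM3 (1.07), MSRB2 (0.70), CCK (1.17), TAC1 (0.85), DYNLL1 (1.33) and S100B (1.17). It was lower in HT for RARS1 (-0.89), DDX10 (-0.88), CCAR2 (-0.92), HMGCS1 (-0.78), DHX9 (-0.76), AP1G1 (-0.77), DIPK2B (-1.24), RPRML (-1.19), NPY1R (-1.19), MTERF3 (-1.001), HOOK1 (-0.98) and C1QTNF1 (-0.97). Lower differences also came from PSMD3 (-0.62), HSPA4 (-0.73), STIP1 (-0.55), SYP (-0.85), SYNJ1 (-0.70), GRIA3 (-0.48), SCN3A (-0.69), SLC2A3 (-0.62), ENO1 (-0.52), HERC6 (-0.47), SULT4A1 (-0.42) and INA (-0.80). The remaining lower ones were DNM1 (-0.67), SLC17A7 (-0.41), TBR1 (-0.59) and FLT1 (-0.92). Several of the largest differences were unstable: the calls of PAGE2B and RPRML were each lost in 14 of 28 alternatives. C1QTNF1 was lost in 10 of 28, SNORD99 in 9 of 29 and DIPK2B in 6 of 29.

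In 298 groups of 7 animals (the named genes and the list means, each group apart), a single animal stood off from the other 6 by more than Dixon's 95% critical value in 23; chance gives about 1 in 20 groups, and values of 1 animal are not independent of each other. OvH animal 35 gave 9 of them. Its regional difference was -0.48 for ATP6V1G1, 0.16 for VMA21, -0.56 for LSM2, -0.33 for GRIN1 and -0.39 for DYNLL1. Its list means were -0.025 for translation factors, -0.28 for potassium channels, -0.17 for antioxidant enzymes and 0.22 for striatal neuron markers. HT animal 42 stood high in the regional difference of LUM, a proteoglycan of fibroblasts (3.43), and in the means of extracellular matrix (0.72), endothelial (0.46), mural (0.69) and meningeal fibroblast markers (3.41). OvH animal 31 was low for OLIG2 (-0.96) and in the means of oligodendrocyte precursor (-0.55) and microglia markers (-0.17). OvH animal 30 was low for HSPA4 (0.26) and SLC17A7 (-0.51), and OvH animal 32 was high for PDGFRA (-0.91). HT animal 39 was low for ATF7 (0.12) and in the mean of translation factors (0.15), and HT animal 38 in the mean of lysosomal genes (-0.00300).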

How the results depend on the processing

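The comparison paired the 2 libraries of an animal; with no replicate block, that is with the regions treated as unpaired, 228 identifiers were called (205 higher, 23 lower), against 982 (716 higher, 266 lower). Equal totals gave 2294 (1793 lower), DESeq2 with the block 1557 (1112 higher, 445 lower) and array weights 1816 (1150 higher, 666 lower). DESeq2 size factors gave 176 lower and a fit without a trend 141 lower. Fewer calls came from a match within 1 (556, 348 higher), which tested fewer identifiers, the myelin covariate (524: 413 higher, 111 lower), the nearest level of 7 rows (512: 338 higher, 174 lower; 7344 tested) and leaving out animals 35 and 42 (129: 114 higher, 15 lower), the last 2 chosen after the data were seen; beyond the fewer identifiers or animals the cause was not tested. Leaving out 1 animal gave 402 to 1534 calls, 316 to 1026 higher and 86 to 508 lower. Pseudocount 10, the other filters, TMM, edgeR with the block and all identifiers without a level match stayed within 1.5 times in total. Within amygdala equal totals gave 1400 calls and leaving out 1 animal 449 to 1999, against 926; within prefrontal cortex, leaving out 1 animal gave 0 to 1.

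Of the 61 named calls 22 held in every alternative run, 23 were lost in 1 to 4 and 16 in 5 or more; 37 were lost without animals 35 and 42 and 28 with no replicate block. With equal totals 2 were lost (B2M and TAC1), and 17 of the 46 uncalled named identifiers passed. The limits are 7 animals a group and row names of which an estimated 15.2% are wrong. They also include the scaling, since the share of higher calls moved from 72.9% to 21.8% with equal totals. A further limit is the signal of neighbouring tissue markers in the amygdala of animals 35 and 42. Without these animals 129 identifiers were called. What depth adds to these limits was not tested.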

Other observations

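Gene families grouped by symbol after the values were seen are given as description. Small nucleolar RNAs, which guide the modification of ribosomal RNA, had 5 of 21 higher and 0 lower, against 5.31% and 1.97% of all identifiers, and all 21 values were positive (median 0.95, and 0.75 with equal totals). SNORA67 and SNORD96 differed by 1.95 ± 0.42 and 1.34 ± 0.36. Their normalized amygdala means were low beside the upper quartile of 2818.9375. For SNORA67 they were 15.8 ± 9.81 in OvH and 44.6 ± 22.6 in HT (SD, n = 7 each). For SNORD96 they were 30.7 ± 15.6 in OvH and 62.2 ± 27.7 in HT. No small nucleolar RNA was called without animals 35 and 42. Many of these RNAs are cut from introns of other genes, and libraries of polyadenylated RNA hold few of them. Import subunits of the inner and outer mitochondrial membrane had 4 of 16 higher and 1 lower: TIMM8B (1.53 ± 0.30), TOMM7 (1.09 ± 0.23), TIMM10 (0.81 ± 0.23) and TIMM10B (0.75 ± 0.18) rose, and the channel TOMM40 fell by 0.52 ± 0.14. With equal totals 4 of the 16 were higher and 2 lower, and the median moved from 0.26 to 0.05. Without animals 35 and 42, 1 of the 16 was higher and 0 lower. COMMD6 and COMMD1, of a family that acts in endosomal sorting, rose by 1.19 ± 0.21 and 0.997 ± 0.21, and all 8 tested members were positive. The median of the 8 was 0.35, and 0.14 with equal totals. Without animals 35 and 42, 1 of the 8 was called.

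Aminoacyl-tRNA synthetases, which load amino acids on tRNA, had 7 of 33 lower and 0 higher (median -0.17). Besides RARS1 these were HARS1 (-0.62), AARS1 (-0.60), IARS1 (-0.53), GARS1 (-0.49), WARS1 (-0.45) and YARS1 (-0.44); 16 were lower with equal totals, and without animals 35 and 42 a single one was. Helicases of the DEAD and DEAH type had 4 of 45 lower and 0 higher, 18 lower with equal totals and 2 without animals 35 and 42. Of 4 tested receptors for neuropeptide Y and opioids, NPY1R and the kappa receptor OPRK1 (-0.97 ± 0.19) were lower, and both calls stood without animals 35 and 42. Zinc finger genes named ZNF had 12 of 313 higher and 3 lower, both below the shares over all identifiers (5.31% and 1.97%). With equal totals 3 of the 313 were higher and 20 lower, against 501 and 1793 of all 13495.

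The remaining lists had few calls by limma. Their unadjusted counts stand beside a share of 24.2% over all identifiers in either direction. Dynein, kinesin and tubulin genes had 2 of 32 higher, DYNLL1 (1.33 ± 0.27) and STMN1 (0.78 ± 0.19), and HOOK1 lower (-0.98 ± 0.24). Interferon-stimulated genes had B2M higher and HERC6 lower of 29, and genes of neurosteroid and estrogen metabolism had SULT4A1 lower of 16, calls lost in 17 of 29, 16 of 30 and 15 of 29 alternatives. Immediate early genes (0 of 29; 1 at an unadjusted p under 0.05; edgeR 0, DESeq2 1), clock genes (0 of 22; 5 unadjusted) and insulin and leptin signalling (0 of 27; 1 higher and 2 lower unadjusted) had no call, the last 2 with 0 by edgeR and DESeq2. Extracellular matrix genes (0 of 31), ependymal (0 of 7), T cell (0 of 5) and red blood cell markers (0 of 2) and amygdala-related transcription factors (0 of 6) had 0 calls by limma, edgeR and DESeq2 and 0 at an unadjusted p under 0.05. Oligodendrocyte precursor (0 of 10) and mural markers (0 of 10) had 0 by the 3 tools and 1 each unadjusted. Of the striatal neuron markers TAC1 alone was called, of 8.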
